A study of Mus musculus with 5 samples.

Results

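Cadherins, the catenins that bind their cytoplasmic tails, and vimentin were followed through 5 Tag-seq libraries of the mouse heart at E10.5 (Theiler stage 17). The set holds 10 genes, *Cdh1*, *Cdh2*, *Cdh3*, *Cdh6*, *Cdh11*, *Cdh13*, *Ctnna1*, *Ctnnd1*, *Jup* and *Vim*. They were listed by name, with earlier results of these data known. Tags were matched in sense to reference transcripts, tags that pointed to a single gene were summed per gene, and 9 of the 10 genes had tags, among 13486 genes found in any library. The wild-type libraries came from the atrioventricular canal (AVC), the outflow tract (OFT), the atria and the ventricles of C57BL/6 embryos. The remaining library was made from the AVC of *Twist1* knockout embryos on the ICR strain, called the *Twist1* null AVC here. Strain and genotype therefore differ together, tissue was dissected by hand and pooled over litters, and each group has 1 library, so that no spread between embryos was measured. The null embryos lack the gene in every tissue and not in the cushions alone.

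Classical cadherins join neighbouring cells through their extracellular repeats. Inside the cell, β-catenin or plakoglobin (*Jup*) binds the tail, α-catenin (*Ctnna1*) links it to actin, and p120-catenin (*Ctnnd1*) keeps the cadherin at the membrane. During valve formation endocardial cells of the AVC and OFT lose contact with their neighbours and invade the cardiac jelly as cushion mesenchyme. In many epithelial-to-mesenchymal transitions (EMT) E-cadherin (*Cdh1*) is lost while N-cadherin (*Cdh2*), cadherin-11 and the intermediate filament vimentin are carried by the mesenchyme, and N-cadherin with plakoglobin also builds the junctions between heart muscle cells.

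Each library held between 4223810 (ventricles) and 12977237 (null) high quality (HQ) tags, and values are tags per 1000000 HQ tags (TPM). Tags were listed only from 6 per tag type, a limit of 0.988 TPM for the AVC, 1.14 for the OFT, 1.29 for the atria, 1.42 for the ventricles and 0.462 for the null. For *Twist1* the AVC gave 918 TPM, the OFT 299, the atria 63.4, the ventricles 55.9 and the null 4.55, in the direction of the labels. The libraries differed in composition: 6 erythroid genes took 21.5% of the atrial tags, 4.67% of the ventricular, 2.73% of the null, 0.242% of the AVC and 0.308% of the OFT tags. Set against the pooled chambers (atria plus ventricles), the typical gene had a median log2 ratio of 1.23 (AVC) or 1.07 (OFT), and the null set against the AVC gave -0.16. TMM normalization, which scales libraries by their bulk of genes, moves every log2 ratio by -0.95, -0.86 and 0.24 in the same order, so that ratios are read here against those medians. Among tags of 1 gene, the share that starts with T after the restriction site was 15.4% for the AVC, 16.4% for the OFT, 34.9% for the atria, 24.6% for the ventricles and 34.6% for the null.

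Tag-seq cuts cDNA with NlaIII and reads 17 bases next to the site, so that a gene is counted through a few short sequences and its level does not grow with its length. Levels are compared within a gene and not between genes. The tags below carry most of the counts described here. Capitals mark the NlaIII site, and the number is the distance in bases from the site to the transcript's 3' end. Tags of *Cdh2* and *Ctnna1* are described without their letters.
Vim 601: CATGaaggaagagatggctcg
Cdh11 1504: CATGtacgaaaatgttacagc
Cdh11 264: CATGctgatctccaattgaat
Cdh11 3006: CATGcacaacccaaacttcac
Cdh13 594: CATGtacacacgcattacgca
Cdh13 189: CATGctttctactgcagtctg
Cdh13 1661: CATGacgaacatcacggacct
Cdh6 158: CATGgcttcttttagttggtt
Cdh3 1642: CATGgctgagcccctctcaga
Ctnnd1 940: CATGggctttggggaccttta
Ctnnd1 3389: CATGctattcctaacttggta
Jup 153: CATGggtttgggggcgggggt
Jup 858: CATGctggcctagccagctcc

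On GRCm38 (GENCODE M21) the *Vim* tag lies in coding exon 6 of 9 at chr2:13580122-13580142. The *Cdh11* tags lie on the minus strand, those at 1504 (chr8:102633578-102633598) and 264 (chr8:102632338-102632358) in the 3' UTR in exon 13 of 13 and that at 3006 (chr8:102647480-102647500) in coding exon 11. Those of *Cdh13* at 594 (chr8:119324328-119324348) and 189 (chr8:119324733-119324753) are in the 3' UTR, and that at 1661 (chr8:119314061-119314081) is in coding exon 13 of 14. The *Cdh6* (chr15:13028838-13028858) and *Cdh3* (chr8:106555656-106555676) tags are in the 3' UTR. For *Ctnnd1* the tag at 940 (chr2:84600992-84601012) is in the 3' UTR and that at 3389 (chr2:84609697-84609717) in coding exon 15 of 20. The *Jup* tag at 153 (chr11:100370751-100370771) is in the 3' UTR and that at 858 (chr11:100372302-100372322) in coding exon 13 of 14. The tags at 1504 in *Cdh11* and at 594 in *Cdh13* start with T, as do the main tags of *Cdh2*. The genes themselves span chr18:16588877-16809246 (*Cdh2*, minus strand) and chr18:35118859-35254779 (*Ctnna1*, plus strand).

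The AVC was compared with the pooled atria and ventricles to ask which adhesion genes mark the region that forms valves. *Cdh6*, *Cdh13*, *Ctnnd1*, *Ctnna1* and *Cdh2* were called higher in the AVC, and none of the 9 genes was called lower. In the OFT, *Cdh6*, *Cdh13*, *Cdh3*, *Ctnnd1* and *Ctnna1* were called higher and none lower. A call means an unadjusted exact p under 0.05 in the two-sided exact test of edgeR at a dispersion of 0.12, and it compares libraries. In bulk tissue fewer cells of a type and less RNA per cell cannot be told apart. Among the genes tested as a whole, the AVC had 43.4% called higher and 8.12% lower, and the OFT 40.6% and 8.88%. The 5 of 9 genes higher in each region are thus close to that background. The median log2 ratio of the 9 genes was 1.50 (AVC) beside 1.23 for the whole table, and 2.08 (OFT) beside 1.07. With Benjamini-Hochberg adjustment of the edgeR exact p, 4 of the AVC calls and all 5 of the OFT calls stayed, beside 35.6% higher and 5.53% lower of the whole table for the AVC and 34.1% and 6.77% for the OFT. Higher calls made up 84.2% (AVC) and 82.1% (OFT) of all calls by library totals, against 59.4% and 59.7% with TMM normalization and 41.5% and 42.5% with a correction for tag GC content. With TMM normalization the 9 genes had 3 calls higher and 1 lower for the AVC, beside a background of 25.6% and 17.5%, and 4 higher and 0 lower for the OFT, beside 26.2% and 17.7%.

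**Figure D1:**
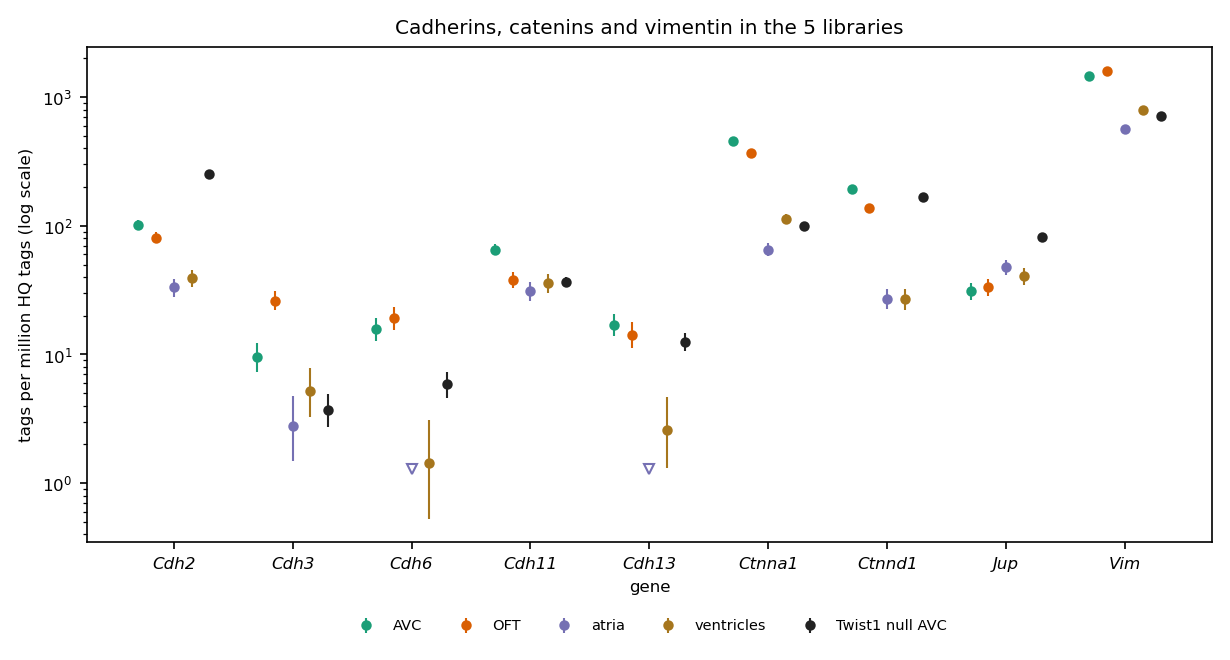
Level of each gene in each library, in TPM on a log axis. Points are single libraries, bars are 95% Poisson intervals of the tag count, and open triangles mark a library without a listed tag, drawn at the value of 6 tags. *Cdh6* and *Cdh13* had no tag in the atria, and *Cdh2* stood highest in the *Twist1* null AVC.

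The *Twist1* null AVC was compared with the wild-type AVC to ask which of these genes differ when the factor is absent. *Ctnna1* was called lower in the null, and no gene of the set was called higher. *Cdh2* and *Jup* stood 2.50-fold and 2.63-fold above the wild type without passing the test, and both passed it with TMM normalization. Of all genes, 11.9% were called higher and 12.7% lower, or 14.9% and 9.36% with TMM normalization. After Benjamini-Hochberg adjustment of the edgeR exact p the call of *Ctnna1* stayed, beside 5.06% of all genes called higher and 3.93% lower. The median log2 ratio of the 9 genes was -0.83, beside -0.16 for all genes. Of all calls 48.3% were higher, 61.4% with TMM normalization and 46.2% with the GC correction. At the fixed dispersion the standard error of these log2 ratios lay between 0.71 and 0.76, and reached 0.93 in the comparisons with the chambers. A ratio within 2-fold of equality could therefore not pass the test, whatever the gene.

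**Figure D2:**
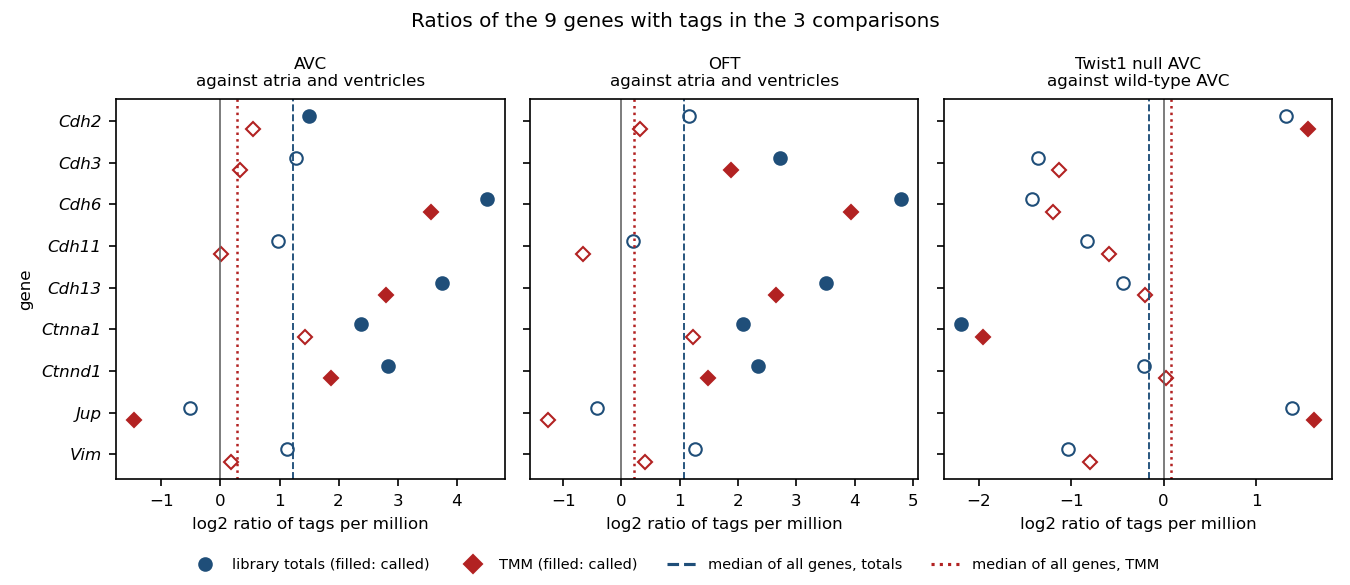
Log2 ratios of the 9 genes with tags in each comparison, by library totals (circles) and with TMM normalization (diamonds), with filled symbols where the gene was called. Vertical lines give the median of all genes under each scaling. *Cdh6*, *Cdh13* and *Ctnnd1* stayed called under both scalings in the AVC and OFT, *Cdh3* did so in the OFT and *Ctnna1* in the null.

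E-cadherin, the cadherin of epithelial sheets, was not found. None of the 24 virtual tags of *Cdh1* reached 6 tags in any library. Of 6 other epithelial genes, *Cldn6* and *Esrp1* were not found either and *Epcam* had 6 tags in the atria alone. The keratins *Krt8*, *Krt18* and *Krt19* were listed in all 5 libraries, and *Krt8* was called higher in the AVC (70.1 TPM) and the OFT (212 TPM) than in the chambers, with *Krt18* called lower in the AVC (3.13 TPM). With TMM normalization the AVC call of *Krt8* was lost (log2 ratio 0.89, exact p = 0.227), and *Krt19* was called lower in the AVC (log2 ratio -1.76, exact p = 0.0187).

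N-cadherin was present in all libraries. For *Cdh2* the AVC gave 102 TPM, the OFT 81.1, the atria 33.2, the ventricles 39.3 and the null 255. The null library was the highest and both chamber libraries were the lowest, with atria and ventricles not apart beyond counting error. The AVC stood 2.82-fold above the pooled chambers (95% counting interval 2.46 to 3.24, log2 ratio 1.50, exact p = 0.0434). This ratio is 0.27 above the median of all genes, the call was lost with TMM normalization (log2 ratio 0.54), and without the atria the log2 ratio was 1.37 (exact p = 0.0641). In the OFT the log2 ratio was 1.17 (exact p = 0.114). The null stood 2.50-fold above the AVC (2.29 to 2.73, log2 ratio 1.32, exact p = 0.0710), a ratio that rose to 1.56 under TMM normalization (exact p = 0.0343).

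P-cadherin, known from epithelial and placental tissue, had few tags throughout, at most 138 in a library. For *Cdh3* the AVC gave 9.55 TPM, the OFT 26.2, the atria 2.79, the ventricles 5.21 and the null 3.70. The OFT was the highest library, 2.74-fold above the AVC (2.01 to 3.80). Against the pooled chambers the OFT stood 6.65-fold higher (4.56 to 9.94, log2 ratio 2.73, exact p = 0.000711) and the AVC 2.42-fold (1.57 to 3.80, log2 ratio 1.27, exact p = 0.119). Against the atria alone the AVC would be called (log2 ratio 1.77, exact p = 0.0423). By library totals the null fell between atria and ventricles and differed from neither beyond counting error. Scaled by TMM the null was the lowest library (3.24 TPM), next to the atria (4.28 TPM from 13 tags). That rank was not tested against counting error.

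Cadherin-6 is a type II cadherin, a group with a divergent adhesive interface. For *Cdh6* the AVC gave 15.8 TPM, the OFT 19.2, the atria no listed tag, the ventricles 1.42 and the null 5.86. The AVC and OFT did not differ beyond counting error, and both stood above every other library. The AVC was 23.4-fold above the pooled chambers (10.4 to 65.4, log2 ratio 4.52, exact p = 4.1e-06) and the OFT 28.4-fold (12.6 to 79.2, log2 ratio 4.79, exact p = 7.1e-07). Only 6 tags stood in the chamber libraries, and with 5 tags put in for every tag type not listed the log2 ratios were 1.19 and 1.33 and neither was called. Without the atria they were 3.45 and 3.73, both called. The null stood 2.70-fold below the AVC (1.98 to 3.69, log2 ratio -1.43, exact p = 0.0626).

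Cadherin-11, the type II cadherin of mesenchyme and bone, varied least. For *Cdh11* the AVC gave 65.2 TPM, the OFT 38.0, the atria 31.1, the ventricles 35.7 and the null 36.8. The AVC was the highest, 1.72-fold above the OFT (1.44 to 2.05), and no neighbours among the other 4 libraries differed beyond counting error. Scaled by TMM, the AVC (48.4 TPM) and the atria (47.8) were level. None of its ratios was called: the AVC had a log2 ratio of 0.97 (exact p = 0.186), the OFT 0.19 (exact p = 0.801) and the null -0.83 (exact p = 0.259). The first 2 values lie below the median of all genes, and that of the OFT turned to -0.67 with TMM normalization. As described with its tag types, most of these counts come from a tag with T as its first base.

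Cadherin-13 is bound to the membrane by a lipid anchor and has no tail for catenins. For *Cdh13* the AVC gave 17.0 TPM, the OFT 14.2, the atria no listed tag, the ventricles 2.60 and the null 12.5. Neither AVC and OFT nor OFT and null were apart beyond counting error, and all 3 stood above both chambers. Ratios to the pooled chambers were 13.7-fold in the AVC (7.35 to 28.3, log2 ratio 3.76, exact p = 3.2e-05) and 11.5-fold in the OFT (6.08 to 24.0, log2 ratio 3.51, exact p = 0.000101). They stayed called in each of the 16 other settings run. Without the atria the log2 ratios were 2.69 and 2.44, and without the ventricles no chamber tag was left. The null was 1.36-fold below the AVC (1.05 to 1.75, log2 ratio -0.44, exact p = 0.568).

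α-catenin was the only gene of the set called in all 3 comparisons. For *Ctnna1* the AVC gave 459 TPM, the OFT 371, the atria 65.4, the ventricles 113 and the null 100.5. Both cushion regions of the wild type stood above the other 3 libraries. By library totals the null lay between the chambers, and scaled by TMM it was the lowest, at 87.9 TPM against 100.5 (atria) and 142 (ventricles). The AVC was 5.22-fold above the pooled chambers (4.82 to 5.66, log2 ratio 2.38, exact p = 0.00162) and the OFT 4.22-fold (3.89 to 4.60, log2 ratio 2.08, exact p = 0.00551). With TMM normalization these log2 ratios were 1.43 (exact p = 0.0511) and 1.22 (exact p = 0.0944), and neither was called. In the null *Ctnna1* was 4.56-fold lower than in the AVC (4.27 to 4.88, log2 ratio -2.19, exact p = 0.00354), with an edgeR p adjusted over all genes of 0.0426. This call ended only at a dispersion of 0.4 (exact p = 0.122) among the 14 other settings, and 6.17% of all genes had a lower ratio.

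p120-catenin was called higher in both cushion regions and passed no test in the null. For *Ctnnd1* the AVC gave 193 TPM, the OFT 137, the atria 27.2, the ventricles 27.0 and the null 167. The chambers did not differ from each other, and the AVC, OFT and null all stood above them. The AVC was 7.12-fold above the pooled chambers (6.20 to 8.22, log2 ratio 2.83, exact p = 0.000256) and the OFT 5.06-fold (4.36 to 5.87, log2 ratio 2.34, exact p = 0.00213). Both calls held with TMM normalization and were lost with the GC correction, where the log2 ratios were 0.76 and 0.48. The null differed from the AVC by a log2 ratio of -0.21 (exact p = 0.770), but the sum hides tag types that went in opposite directions.

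Plakoglobin, shared by adherens junctions and desmosomes, had another order of libraries. For *Jup* the AVC gave 30.9 TPM, the OFT 33.2, the atria 47.6, the ventricles 40.5 and the null 81.3. By library totals the null was the highest, and none of the neighbours among the other 4 libraries differed beyond counting error. Scaled by TMM, the atria (73.1 TPM) stood level with the null (71.1). The log2 ratio to the pooled chambers was -0.51 in the AVC (exact p = 0.488) and -0.41 in the OFT (exact p = 0.579), each over 1 unit below the median of all genes. With TMM normalization the AVC was called lower (log2 ratio -1.47, exact p = 0.0487). The null stood 2.63-fold above the AVC (2.25 to 3.08, log2 ratio 1.39, exact p = 0.0606), a ratio of 1.63 under TMM normalization (exact p = 0.0288).

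Vimentin, the intermediate filament of mesenchymal cells, had the most tags of the set in every library. For *Vim* the AVC gave 1469.9 TPM, the OFT 1607, the atria 561, the ventricles 790 and the null 717. The wild-type cushion regions were the highest, and by library totals the null lay between the 2 chamber libraries, with every neighbouring pair apart beyond counting error. Scaled by TMM, the null (628 TPM) lay below the atria (862) and the ventricles (998). The AVC stood 2.20-fold above the pooled chambers (2.12 to 2.27, log2 ratio 1.13, exact p = 0.119) and the OFT 2.40-fold (2.32 to 2.48, log2 ratio 1.26, exact p = 0.0831). Neither was called, and both lie within 0.20 of the median log2 ratio of all genes. Against the atria alone the OFT passed the test (log2 ratio 1.52, exact p = 0.0386). In the null *Vim* was 2.05-fold below the AVC (1.99 to 2.11, log2 ratio -1.03, exact p = 0.154).

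Over all 9 genes 49 tag types were found in some library. The AVC listed 35 of these, the OFT 35, the atria 10, the ventricles 12 and the null 37. The chamber libraries thus counted each gene they held through 1 or 2 sites. Coding tags of *Cdh2*, *Cdh11*, *Cdh13*, *Ctnna1* and *Jup* were listed in the AVC and OFT and by neither chamber, while *Cdh3* was listed at the same single site in all 4 wild-type libraries. Across all genes the number of tag types per gene was 2.41 for the AVC, 2.37 for the OFT, 1.54 for the atria, 1.57 for the ventricles and 2.89 for the null.

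**Figure D3:**
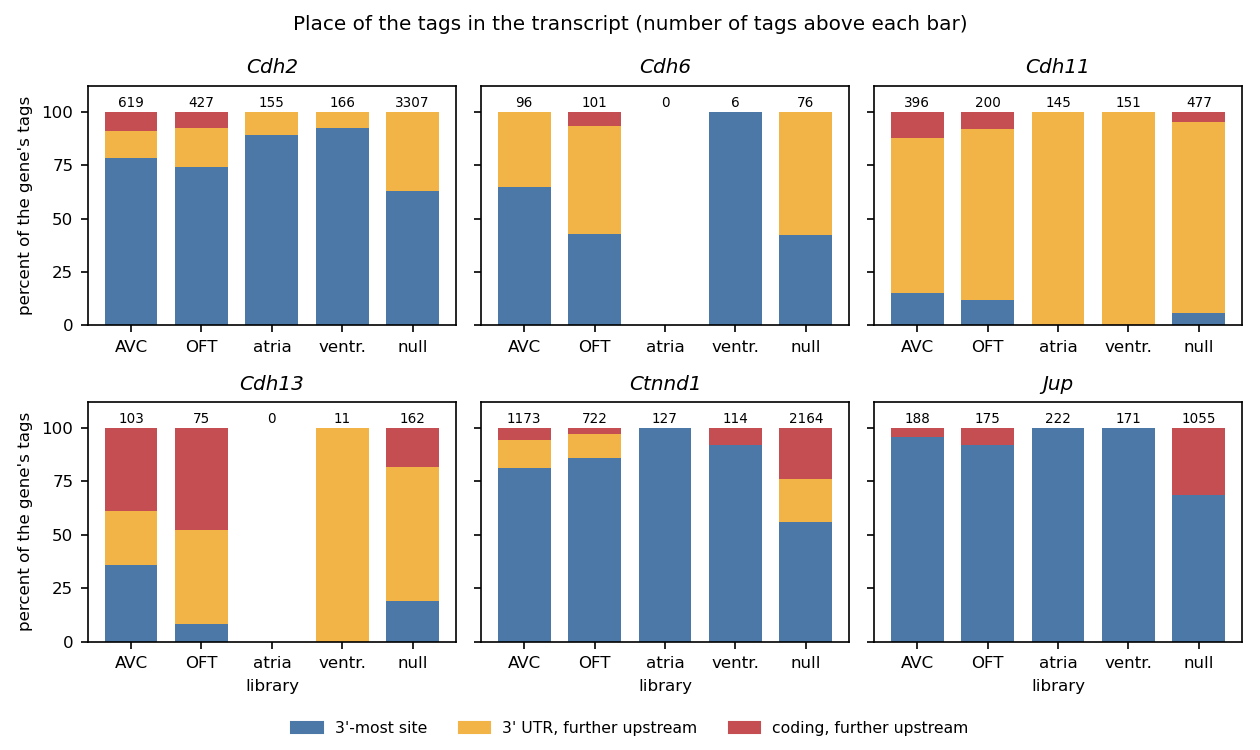
Share of the tags (percent) of *Cdh2*, *Cdh6*, *Cdh11*, *Cdh13*, *Ctnnd1* and *Jup* from the NlaIII site nearest the transcript's end, from other sites of the 3' UTR and from coding sites further upstream, with the number of tags above each bar. Coding tags made up 31.5% of *Jup* and 24.2% of *Ctnnd1* in the null, and no tag of *Cdh2* in the null was coding.

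The tag types of *Cdh11* differed in how the libraries ranked. Its tag at 1504, which starts with T, gave 44.4 TPM (AVC), 26.0 (OFT), 29.6 (atria), 35.7 (ventricles) and 30.9 (null). It held 68.2% of the gene's tags in the AVC but all of them in the ventricles. The tag at 264 gave 10.04 TPM (AVC), 4.56 (OFT) and 2.08 (null), and the coding tag at 3006 gave 7.90, 3.04 and 1.85, while the chambers listed neither. Without tags that start with T all 3 ratios of *Cdh11* were called, at a log2 ratio of 4.44 for the AVC (exact p = 2.3e-06), 3.67 for the OFT (exact p = 7.2e-05) and -1.61 for the null (exact p = 0.0377). Only 7 tags of the chambers remained in the first 2 of these ratios.

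The same contrast of sites was seen in *Cdh13*. In the null its tag at 594, which starts with T, stood 1.82-fold above the AVC (1.17 to 2.92), whereas the tag at 189 stood 2.55-fold below (1.54 to 4.25) and the coding tag at 1661 2.85-fold below (1.73 to 4.74). In the ventricles the tag at 594 was the only one listed. The summed value of *Cdh13* in the null, close to that of the AVC, is therefore a sum of tags that moved in opposite directions.

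Sites also disagreed within *Ctnnd1* and *Jup*, whose tags do not start with T. The 3'-most tag of *Ctnnd1* gave 157 TPM in the AVC and 93.6 in the null, 1.68-fold lower (1.54 to 1.83), while the coding tag at 3389 gave 11.2 and 39.4, 3.52-fold higher (2.73 to 4.60). The 3'-most tag of *Jup* gave 29.6 TPM in the AVC and 55.7 in the null, 1.88-fold higher (1.60 to 2.23). Its coding tag at 858 gave 1.32 TPM (AVC), 2.66 (OFT) and 25.6 (null), 19.4-fold above the AVC (9.75 to 45.4), and the chambers did not list it. Both coding tags were thus raised in the null library relative to the 3'-most tags of the same genes.

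In *Cdh2* every frequent tag of the 3' UTR was higher in the null. The 3'-most tag gave 80.0 TPM in the AVC and 160 in the null, 2.01-fold higher (1.82 to 2.22), and the tag at 824, which starts with G, stood 5.92-fold higher (4.34 to 8.28). The tag at 606 stood 11.8-fold higher (7.76 to 18.7). Tags in coding exons held 8.89% (AVC) and 7.49% (OFT) of *Cdh2*, and none was listed in the null although that library gave 3307 tags of the gene. In *Ctnna1* the 3'-most tag held between 90.2% (null) and 98.3% (ventricles) of the tags, and in *Vim* at least 96.5%, so that those sums are close to the value of a single tag. *Cdh3* was counted at 1642 bases from the end in all libraries, and its 3'-most site gave no tag. This tag was 4.76-fold lower in the null than in the AVC (2.95 to 7.89), while 22 of the 48 null tags of *Cdh3* came from sites at 347 and 804 that no other library listed. The null is the deepest library. Its value at 347 (0.462 TPM) lies below the listing limit of every other library, and that at 804 (1.23 TPM) below those of the chambers.

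**Figure D4:**
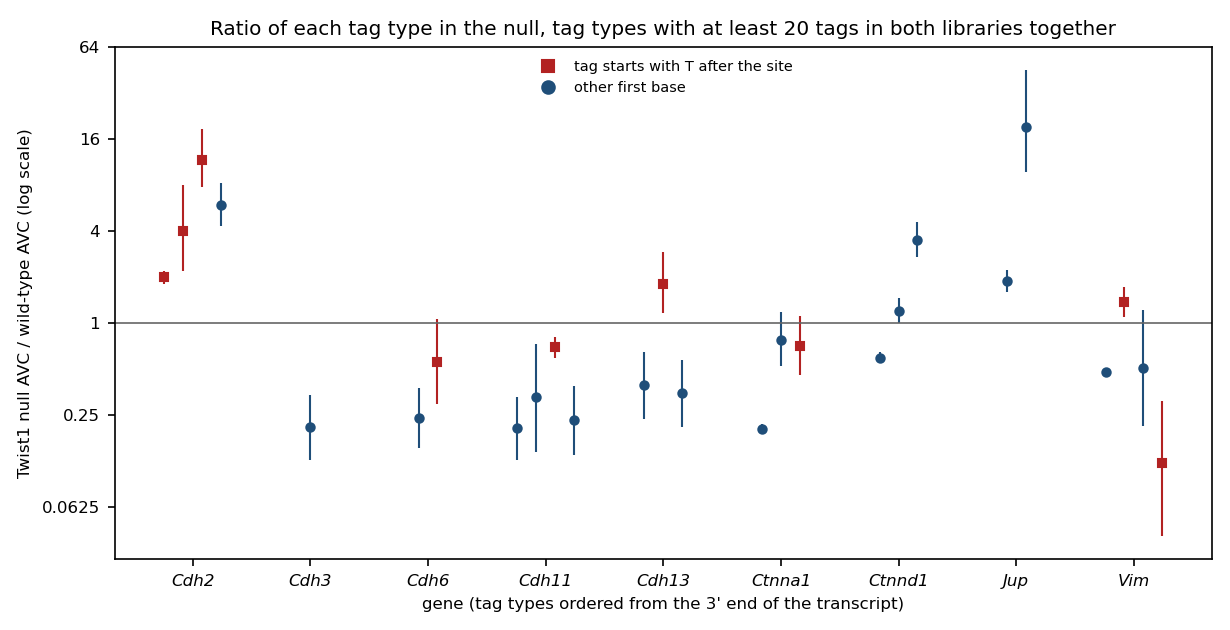
Ratio of the *Twist1* null AVC to the wild-type AVC (log axis) for each tag type with at least 20 tags in both libraries together and tags in each. Bars are 95% counting intervals, and squares mark tags with T as the first base after the site. Tag types without a tag in the null are not drawn, among them the coding tag of *Cdh2* at 2840 (24 tags in the AVC). The *Cdh2* tag types shown are those of the 3' UTR and lay above 1. Ratios of *Ctnnd1* and *Jup* rose with distance from the 3' end, and the T tags of *Cdh11* and *Cdh13* lay above the other tags of these genes.

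Of the 31 other cadherins, catenins and junction partners examined, 22 had tags in some library. The AVC had 9 of 21 tested called higher and 2 lower, beside 43.4% and 8.12% of all genes (median log2 ratio 0.83, beside 1.23). The OFT had 12 of 22 higher and 3 lower, beside 40.6% and 8.88% (2.20, beside 1.07). The null had 2 of 21 higher and 4 lower, beside 11.9% and 12.7% (-0.21, beside -0.16). The share called higher in the AVC is thus that of the background. VE-cadherin (*Cdh5*), the cadherin of endothelium and endocardium, had 90.9 TPM (AVC), 109 (OFT), 8.57 (atria), 12.8 (ventricles) and 81.8 (null). It was called higher in the AVC (log2 ratio 3.10, exact p = 8.7e-05) and OFT (log2 ratio 3.36, exact p = 2.7e-05) in every setting run, and the null differed from the AVC by a log2 ratio of -0.15 (exact p = 0.835).

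Afadin (*Afdn*), which ties nectins and α-catenin to actin, shared the direction of *Ctnna1* in each comparison. It had 167 TPM (AVC), 122 (OFT), 21.4 (pooled chambers) and 42.9 (null), and the null was called lower than the AVC (log2 ratio -1.96, exact p = 0.00858). Vinculin (*Vcl*), an actin linker recruited by α-catenin, was called higher in the AVC (log2 ratio 2.90, exact p = 0.000194) and OFT and gave 122 TPM in the AVC and 137 in the null. *Ctnnbip1*, an inhibitor of β-catenin, was called higher in both regions (log2 ratios 4.56 and 4.53). *Cdh24* had 16.6 TPM (AVC), 18.2 (OFT), no chamber tag and 4.08 (null), where it was called lower than the AVC (exact p = 0.0111). *Cdh10* and *Nectin1* had no tag in the chambers and were called higher in both regions, with 5.70 and 5.89 TPM in the OFT. Their AVC calls rest on 10 and 8 tags (1.65 and 1.32 TPM), near the listing limits of the chambers. At 5 tags in the pooled chambers the AVC would stand 2.93-fold and 2.34-fold higher. The limit allows up to 5 unlisted tags in each chamber library, so that these ratios could be lower still.

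The desmosomal cadherin *Dsg2*, a partner of plakoglobin, was highest in the null by library totals. Scaled by TMM, *Dsg2* in the null (45.7 TPM) stood close to its level in the ventricles (41.9). It had 6.58 TPM (AVC), 3.42 (OFT), 21.9 (atria), 33.1 (ventricles) and 52.2 (null), and was called lower in the AVC (exact p = 0.00946) and OFT (exact p = 0.000341) and higher in the null (log2 ratio 2.99, exact p = 0.000200). The α-catenin relative *Ctnnal1* was the other gene called higher in the null (log2 ratio 1.99, exact p = 0.0111). *Cdh20* gave 19.3 TPM in the AVC, none in the OFT and 3.24 in the null, with calls lower in the OFT and in the null, and *Cdh19* had 14 tags in the AVC and none in the null.

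β-catenin (*Ctnnb1*), which binds the same cadherin tails as plakoglobin and carries Wnt signals, was called lower in the AVC (log2 ratio -2.87, exact p = 0.000204) and OFT (log2 ratio -2.38, exact p = 0.00167). It had 67.6 TPM (AVC), 94.9 (OFT), 354 (atria), 648 (ventricles) and 142 (null). All of its 1654 tags in the atria and 2736 in the ventricles start with T after the site, as do 382 of 411 in the AVC. The remaining 29 tags of the AVC, 39 of the OFT and 21 of the null have no counterpart in the chambers, and without T tags its direction is opposite. The part of the tag sequence in this result was not tested.

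EMT factors, among them repressors of cadherin genes, were mostly higher in the cushion regions. Of 9 factors, *Twist1* included, the AVC had 7 called higher (median log2 ratio 3.94, beside 1.23 for all genes), the OFT 8 (3.34, beside 1.07) and the null 4 called lower (-0.91, beside -0.16), with none in the other directions. These counts stand beside 43.4% and 40.6% of all genes called higher and 12.7% called lower. With TMM normalization 6 were called higher in each region and 4 lower in the null. The shares of all genes were then 25.6% (AVC) and 26.2% (OFT) higher and 9.36% lower (null). For *Snai1* the AVC gave 43.5 TPM, the OFT 18.4, the atria 2.14, the ventricles 1.42 and the null 4.78. It was 9.10-fold lower in the null than in the AVC (exact p = 8.0e-05). *Snai2* (13.3 TPM in the AVC, 3.24 in the null) and *Klf4* (32.1 and 4.55) were also called lower there. *Klf4*, which the study names as an inhibitor of EMT, is among those called higher in each region and lower in the null. *Zeb1* had 192 TPM (AVC), 200.1 (OFT) and 143 (null) and was called higher than the chambers in both regions, but not changed in the null by the test (exact p = 0.555).

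Markers of the cell types in these dissections differed between libraries too. All 7 cushion mesenchyme markers were called higher in both cushion regions and 5 were called lower in the null, with a summed level of 3299.9 TPM (AVC), 3406 (OFT), 248 (atria), 223 (ventricles) and 459 (null). *Twist1*, the deleted gene, is 1 of the 7 and 1 of the 5, and gives 918 TPM of the AVC sum and 4.55 of the null sum. *Sox9* was called lower too, with 514 TPM in the AVC and 114 in the null. With TMM normalization 6 mesenchyme markers were called higher in each region, as *Postn* lost its call, and 5 lower in the null. Of 8 endothelial and endocardial markers 3 were called higher in each region, and their sum lay between 316 (atria) and 539 TPM (OFT), while *Emcn*, at 0 in the AVC, was called lower there and higher in the null. Of 8 cardiomyocyte markers 7 were called higher in the AVC, 6 in the OFT and 1, *Myh6*, lower in the null, with sums from 0.812% (atria) to 2.44% (OFT) of the tags. Beside these and the following counts by library totals stand the shares of all genes. They were 43.4% higher and 8.12% lower (AVC), 40.6% and 8.88% (OFT), and 11.9% and 12.7% (null). With TMM normalization the cardiomyocyte calls were 5 higher and 1 lower (AVC) and 4 and 1 (OFT). The endothelial calls were then 2 higher and 2 lower (AVC) and 3 and 2 (OFT). Shares of all genes with TMM normalization were 25.6% higher and 17.5% lower (AVC) and 26.2% and 17.7% (OFT). In the null these shares were 14.9% and 9.36%. All 6 erythroid markers were called lower in the AVC and OFT and 4 were called higher in the null. Of 5 epicardial markers 1 was called higher in each region, 3 lower in the OFT and 1 lower in the null, with sums from 78.8 (OFT) to 280 TPM (atria). With TMM normalization the epicardial calls were 1 higher and 2 lower (AVC) and 1 and 4 (OFT). Erythroid markers called higher in the null were then 5. The part of any of these cell types in the ratios of the cadherins, catenins and vimentin was not tested.

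The genes whose pattern over the 5 libraries was most like that of the 3 members with the most tags were found by the root mean square difference of centred log2(TPM + 1) among 7020 genes. For *Vim* these were *Rbm25* (0.054), *Cep120* (0.068) and *Ccdc115* (0.075). For *Ctnna1* they were *D5Ertd579e*, *Stard4* and *Mgmt*, with differences from 0.129 to 0.140, and for *Cdh2* they were *Tmem201*, *Phlpp1* and *Zer1*, with differences from 0.076 to 0.134. *Rbm25*, for example, had 206 TPM (AVC), 226 (OFT), 71.4 (atria), 106 (ventricles) and 101 (null), with the same order of libraries as *Vim*.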

How the data were processed

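Tag-seq of 5 mouse heart libraries was analysed. The deposited files hold counts per tag type without normalization: the authors kept the first 21 bases of reads and tag types with more than 5 tags, and the labels name mm9 as the build. Tags were matched to virtual tags at every NlaIII site of 33363 GENCODE M21 transcripts linked to RefSeq (GRCm38), and sense tags of 1 gene were summed, which took between 70.7% and 74.5% of the tags. Each gene's HQ-scaled level (TPM) is tags per 1000000 HQ tags. Ratios were tested with edgeR 4.0.16 (R 4.3.3, exact test, dispersion fixed at 0.12 after the study's methods, prior count 0.125) on 12503, 12451 and 12963 genes, which was tested on simulated data. Adjusted p are Benjamini-Hochberg. Intervals are exact 95% Poisson (levels) or Clopper-Pearson (ratios) and describe counting error alone, as copies made by PCR were not removed. DESeq2 1.42.0 gave alternative size factors. Other settings changed dispersion, test, filters, sites, tag sequence, depth and libraries. Members and lists were chosen with earlier results of these data known. Named were all members, *Twist1*, *Ctnnb1*, *Cdh5*, up to 5 called genes per list and direction, tag types with at least 10% of a gene's tags, and like genes of at least 20 TPM. *Krt19*, *Sox9* levels and the values of *Vcl* and *Zeb1* in the null were added after their values were seen. No column was left out.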

Additional observations from a re-analysis of the deposited data

Results flagged for a closer look

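Tags antisense to these genes were not part of the counts above, and for 3 genes their level in the *Twist1* null AVC lay above that in the wild-type AVC beyond counting error. Antisense tags of *Cdh2* reached 129 TPM in the null and 33.4 in the AVC, 3.87-fold higher (3.35 to 4.50), and made up 33.7% and 24.7% of the tags of both strands. Antisense tags of *Ctnnd1* reached 98.1 TPM in the null and 41.3 in the AVC, 2.37-fold higher (2.07 to 2.73). Antisense tags of *Jup* reached 18.2 TPM in the null and 3.79 in the AVC, 4.80-fold higher (3.13 to 7.73). Over all genes, antisense tags took 9.58% of the tags of the null and 6.42% of those of the AVC. Antisense tags of *Vim* were lower in the null, at 10.9 TPM against 17.0 (0.645-fold, 0.497 to 0.840), and those of *Ctnna1* (0.909-fold, 0.724 to 1.14), *Cdh6* (1.27-fold, 0.512 to 3.58) and *Cdh11* (1.25-fold, 0.900 to 1.77) did not differ beyond counting error.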

How the results depend on the processing

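No paired analysis was possible because each group has 1 library and the labels carry no replicate numbers. Of 411 ratios of the 9 genes under other settings, 340 kept direction and side of the threshold, 35 gained and 25 lost the call, and 11 changed sign. Depth and the limit of 6 tags bound what the chambers can show of *Cdh6*, *Cdh13* and *Cdh11*.

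Genes of the set called higher in the AVC (5 in the main test) were 3 with TMM normalization and 3 with DESeq2 size factors. They were 8 at dispersion 0.05, 2 at dispersion 0.4, 2 with the GC correction and 3 with 5 tags per missing tag type. Genes of the set called lower (0) were 1 with TMM normalization, 1 with DESeq2 size factors and 1 with the GC correction. Of all 12503 genes tested, 5427 were called higher by the main test, 3206 with TMM normalization and 3147 with DESeq2 size factors. It was 6657 at dispersion 0.05, 2534 at 0.4, 2515 with the GC correction and 3042 with 5 tags per missing tag type. Called lower were 1015 by the main test, 2193 with TMM normalization, 2238 with DESeq2 size factors and 3552 with the GC correction. In the OFT, 2 genes of the set were called higher at dispersion 0.4 and 2 with the GC correction (5 before). With the GC correction 1 was called lower (0 before). Among all 12451 genes tested, 2420 were called higher at dispersion 0.4 and 2609 with the GC correction (5056 before). Called lower were 3523 with the GC correction (1106 before). In the null, 2 genes of the set were called higher with TMM normalization, 2 with DESeq2 size factors and 2 at dispersion 0.05 (0 before). Without tags starting with T they were 2, and in thinned libraries 1. Those called lower (1 before) were 4 at dispersion 0.05, 0 at 0.4 and 3 from the 3'-most site. They were 2 each with the GC correction, with more than 10 tags per tag type and without tags starting with T. With 5 tags per missing tag type and in thinned libraries they were also 2 each. Among all 12963 genes tested, 1539 were called higher before, 1926 with TMM normalization, 1919 with DESeq2 size factors and 2443 at dispersion 0.05. Called lower were 1648 before, 3005 at dispersion 0.05, 306 at 0.4, 1920 with the GC correction and 1385 with 5 tags per missing tag type. From the 3'-most site 1997 of 11559 genes were called lower, and with more than 10 tags per tag type 1562 of 12080. Without tags starting with T, 1298 of 11618 genes were called higher and 1544 lower. In thinned libraries 1217 of 11949 were called higher and 1801 lower. Leaving out the atria or the ventricles gave 4 to 6 genes called higher in the AVC and 5 to 6 in the OFT. Of all genes, 4919 of 12235 were called higher in the AVC without the atria and 5593 of 12325 without the ventricles. For the OFT these counts were 4594 of 12142 and 5327 of 12237.

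Changed signs with the GC correction were, in the AVC, *Cdh3* (log2 ratio -1.37), *Cdh11* (-0.57) and *Vim* (-1.002) and, in the OFT, *Cdh11* (-1.14) and *Vim* (-0.64). *Cdh11* also turned to -0.020 in the AVC with DESeq2 size factors and to -0.67 and -0.69 in the OFT with TMM normalization and DESeq2 size factors. In the null *Ctnnd1* turned to 0.027, 0.022 and 0.14 and *Cdh5* to 0.086, 0.081 and 0.20 with TMM normalization, with DESeq2 size factors and without tags starting with T. Without those tags *Ctnnb1* turned to 8.02 (AVC), 8.58 (OFT) and -1.20 (null), where the first 2 rest on the prior count since the chambers held no other tag. The causes were not tested. For *Cdh3* the 3'-most site gave no value.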

Other observations

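Tags that *Cdh11* shares with 2610005L07Rik and 6820431F20Rik could not be given to 1 gene and are not in its counts. There were 19 such tags for the AVC, 49 for the OFT, 12 for the atria, 22 for the ventricles and 80 for the null.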
